A study of Mus musculus with 36 samples.

Results

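The data compare colon from mice without a working Il17rc gene (KO) on day 7 of a tumor-inducing protocol with colon from untreated KO mice. Groups were taken from the sample titles, which gave 4 arrays labelled KO day 7 and 4 labelled KO untreated, so 8 of the 36 arrays of the series. All 17097 genes with a named probe set were tested. Il17rc encodes a receptor subunit for IL-17A and IL-17F.

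The KO day 7 mice carried the Il17rc knockout and were labelled as given azoxymethane, which induces tumors of the large bowel, and dextran sulfate sodium to drink, an irritant that damages the epithelium. The KO untreated mice carried the same knockout and had neither agent. WT day 7 and WT untreated mice, 4 arrays each, had an intact Il17rc gene and the same treatments, and served to test whether a change differed between genotypes. The whole protocol as labelled had 3 cycles of 5 days of 3% dextran sulfate sodium followed by 14 days of plain water, and the mice of every group were 6 to 8 weeks old. The strain, the deleted part of the gene and whether day 7 counts from the carcinogen injection are not stated in the labels. The remaining arrays were from day 15 and from tumors.

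RNA came from colon tissue and was measured with 1 Affymetrix HT MG-430 PM array for each sample. In such bulk tissue fewer cells of a type and less RNA per cell cannot be told apart. The values are linear intensities, with a median between 14 and 16 on each array. Log2 differences are day 7 minus untreated, followed by the standard error from the limma fit, and "rose" or "fell" means an adjusted p under 0.05 by limma with Benjamini-Hochberg adjustment over all genes. Correlations between arrays on the log2 scale were 0.969 to 0.993 among the KO day 7 arrays and 0.989 to 0.995 among the KO untreated arrays. The epithelial genes Epcam (5864 to 6893 at KO day 7 and 6667 to 7330 in KO untreated) and Muc3 (7313 to 9237 and 7317 to 8059) were bright on all 8 arrays.

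IL-17A and IL-17F bind a receptor made of Il17ra and Il17rc, which signals through the adaptor encoded by Traf3ip2 and induces neutrophil-attracting chemokines and antimicrobial proteins in epithelium. Interferons act through other receptors and turn on antigen presentation genes, antiviral enzymes and a family of GTPases that attack intracellular microbes. In the colon, cell division is largely that of stem and progenitor cells at the base of the crypts, which renew the lining.

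The knocked-out gene did not match its label on every array. The Il17rc intensity was 331, 44, 12 and 10 on KO day 7 replicates 1 to 4, against 7, 15, 10 and 9 on the KO untreated arrays. In WT it was 340 to 515 at day 7 and 248 to 330 untreated, so the library labelled KO day 7 replicate 1 lay among the WT values and replicate 2 above every KO untreated array. The same 2 libraries carried transcripts of other cells. Krt5, which squamous epithelium such as skin makes as a structural keratin, had 4230, 1006, 19 and 19 on the KO day 7 arrays, against 20 to 22 in KO untreated. S100a8, a calcium-binding protein abundant in neutrophils, had 1980, 421, 8 and 7, against 8 to 12.

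Over the 23 measured squamous markers, the summed intensity was 32825, 10090, 2712 and 2602 on KO day 7 replicates 1 to 4, against 1925 to 2489 in KO untreated. Over the 13 neutrophil markers it was 10796, 3203, 145 and 151, against 160 to 183. Of these markers only Anxa8, an annexin of the squamous list, passed the test. Its call was lost without any one of KO day 7 replicates 1 to 4 or KO untreated replicates 1 to 3 (adjusted p up to 0.123 by limma). It was also lost without KO day 7 replicates 1 and 2 (0.233). Anxa8 had 1172 on KO untreated replicate 4, where Krt5 had 20, so its signal was not limited to arrays with Krt5. The part of squamous cells and neutrophils in the results below was not tested. The counts of lists with calls are therefore also given without replicates 1 and 2, as arrays labelled KO day 7 replicates 3 and 4 against KO untreated.

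**Figure D1:**
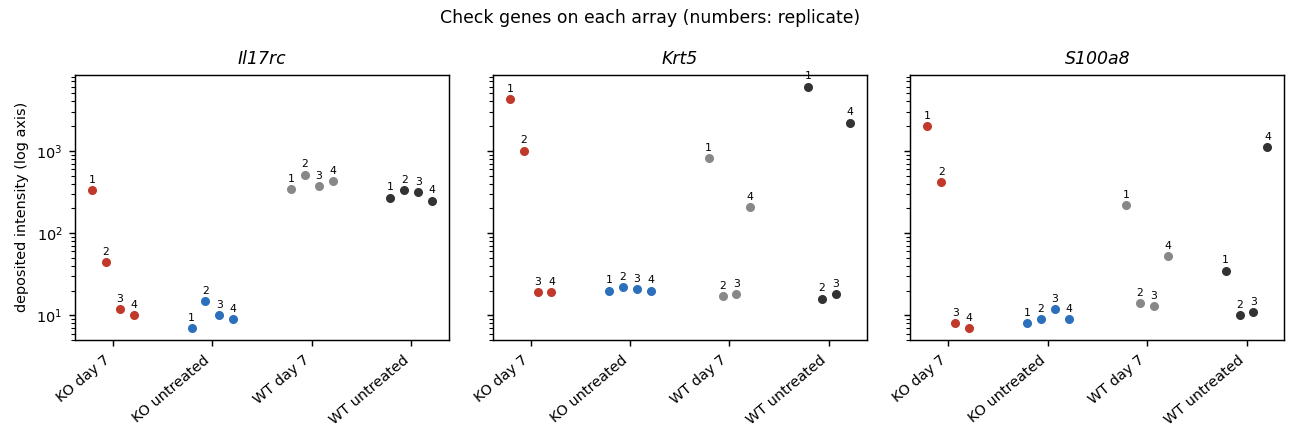
Intensity (log axis) of Il17rc, Krt5 and S100a8 on each array of KO day 7, KO untreated, WT day 7 and WT untreated, with the replicate number above each point. KO day 7 replicates 1 and 2 stand above all KO untreated arrays for the 3 genes, and replicates 3 and 4 lie at the level of the KO untreated arrays.

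In all, 964 genes rose and 1125 fell at KO day 7, which is 5.64% and 6.58% of the genes tested. Falls reached further than rises: 141 genes fell by at least 2 log2 units and 11 rose by as much. The share of calls that rose was 46.1%, and it was 24.3% under median centring of the arrays and 33.5% with unnormalized values. The median log2 difference over all genes was 0.014. The 2 groups of arrays did not overlap for 22.8% of all genes tested, with 10.9% higher and 11.9% lower at day 7. Without replicates 1 and 2, 667 genes rose (3.9%) and 862 fell (5.04%), among them 574 of the 964 rises and 775 of the 1125 falls, and 0 calls turned their sign. The counts of list members given below without replicates 1 and 2 compare with these 3.9% and 5.04% of all genes. Without KO day 7 replicate 3 the total of calls was 1317 in place of 2089. The labels do not say whether the arrays of a group come from separate animals, and the p-values then reflect only how these samples scatter, which may be technical.

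The promoters of the most lowered interferon genes are shown first, since these genes carry the largest change. They are the 250 bases before the transcription start of the 3 genes with the largest falls among the GTPases and the interferon-induced effectors that the RefSeq promoter table (GRCm38.p6) covers. Capitals mark matches on either strand to the core of the interferon-stimulated response element (ISRE, here GAAA, any 2 bases and GAAA again), which IRF factors bind. Tgtp1 lies at chr11:48992247-48992496 (minus strand), Ubd at chr17:37193642-37193891 (plus strand) and Cxcl9 at chr5:92328080-92328329 (minus strand), each read 5′ to 3′.
Tgtp1: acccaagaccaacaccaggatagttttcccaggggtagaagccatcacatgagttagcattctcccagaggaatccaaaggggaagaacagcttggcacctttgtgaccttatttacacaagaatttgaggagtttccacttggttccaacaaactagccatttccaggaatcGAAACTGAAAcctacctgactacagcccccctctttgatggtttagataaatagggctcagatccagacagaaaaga
Ubd: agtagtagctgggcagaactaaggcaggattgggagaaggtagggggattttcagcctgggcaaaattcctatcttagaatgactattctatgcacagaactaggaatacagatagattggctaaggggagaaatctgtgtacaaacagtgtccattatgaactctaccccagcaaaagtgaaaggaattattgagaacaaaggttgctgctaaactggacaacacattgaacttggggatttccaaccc
Cxcl9: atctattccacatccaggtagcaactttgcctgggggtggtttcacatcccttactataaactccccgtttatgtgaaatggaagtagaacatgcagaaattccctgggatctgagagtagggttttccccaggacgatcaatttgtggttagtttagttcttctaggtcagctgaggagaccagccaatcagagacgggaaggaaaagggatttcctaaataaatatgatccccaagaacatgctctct

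The Tgtp1 promoter held the ISRE core at 68 bases before the start, and these windows of Ubd and Cxcl9 did not hold it. The ISRE core was found in 7 of the 8 GTPase promoters in the table (87.5%) and in 6 of 14 of the type I antiviral list (42.9%). The other interferon lists had lower shares. These were 2 of 15 ligands, receptors and factors (13.3%), 1 of 11 class I, 1 of 8 class II and 1 of 8 effector promoters. Among cell division genes, 0 of 19 DNA replication and 1 of 19 mitosis promoters held the ISRE core. It was found in 2.58% of the promoters of the 13605 tested genes with an entry and in 3.04% of all 27025 promoters. It was found in 5.94% of the 893 promoters of genes that fell and in 1.25% of the 798 promoters of genes that rose. A match to these letters is a description and not a shown binding site.

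The GTPase matches lay 15 to 68 bases before the start. They are printed as windows of 30 bases with the ISRE core in capitals, 1 for each gene, a display chosen after the values were seen (Irgm1 and Gbp3 held a second, overlapping match), from GRCm38.p6 at chr11:48992304-48992333 (Tgtp1), chr11:58199512-58199541 (Igtp), chr11:58214903-58214932 (Irgm2), chr11:48871425-48871454 (Irgm1), chr3:142559989-142560018 (Gbp3), chr3:142530273-142530302 (Gbp7) and chr3:142620594-142620623 (Gbp2).
Tgtp1: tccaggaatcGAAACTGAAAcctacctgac
Igtp: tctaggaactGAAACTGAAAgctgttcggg
Irgm2: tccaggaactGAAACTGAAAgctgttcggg
Irgm1: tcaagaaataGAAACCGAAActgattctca
Gbp3: ctgggaaataGAAACTGAAActgtgtcctg
Gbp7: atggagaactGAAACTGAAActgcacacac
Gbp2: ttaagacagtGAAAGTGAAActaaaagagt

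The interferon-inducible GTPases were lower at KO day 7 than in untreated KO colon by a median log2 difference of -3.07, with 11 of the 12 measured members falling and 0 rising, against 6.58% of all genes that fell. Tgtp1 had 63, 45, 70 and 16 on the KO day 7 arrays, against 2425, 3032, 2908 and 2918 on the KO untreated arrays. Gbp10, a guanylate-binding protein, had 21, 23, 33 and 17, against 297, 403, 376 and 552 (-4.03 ± 0.44, adjusted p = 1.48e-07 by limma). In both genes every day 7 array lay several-fold below every untreated array, and replicates 1 and 2 did not stand apart from 3 and 4.

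Gbp8 had 9, 11, 13 and 11 at KO day 7, against 66, 132, 107 and 133 in KO untreated (-3.19 ± 0.30, adjusted p = 1.96e-08 by limma). Its day 7 values lie near the lowest intensities of the arrays, so the size of its fall is limited by background. The genes with a printed promoter window fell as well, with log2 differences of -3.65 for Igtp, -2.94 for Irgm2, -2.93 for Irgm1, -2.76 for Gbp3, -2.61 for Gbp7 and -2.47 for Gbp2. The remaining member, Gbp4, was near background in both groups (mean 6 at KO day 7 and 6.5 in KO untreated). Leaving out replicates 1 and 2, 11 members fell.

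Genes of peptide presentation on MHC class II showed the largest median of all 34 lists, -3.19 over 10 members. By this route antigen-presenting cells display proteins they have taken up. Of the members 7 fell, against 6.58% of all genes. H2-DMb2, a chain of the complex that loads peptides, had 32, 37, 55 and 25 at KO day 7, against 1148, 1080, 941 and 856 in KO untreated (-4.68 ± 0.53, adjusted p = 2.5e-07 by limma). Its partner H2-DMa had 34, 53, 57 and 24, against 648, 757, 731 and 657 (-4.02 ± 0.53, adjusted p = 3.91e-06). Cd74, the invariant chain that guides class II molecules to their loading compartment, had 123, 167, 178 and 46, against 1744, 2131, 1860 and 1651 (-3.91 ± 0.47, adjusted p = 8.52e-07).

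The class II chains H2-Ab1 (-4.10) and H2-Eb1 (-3.27) fell too. H2-Oa (-1.48), H2-Ob (-1.39) and the protease Ctss (-0.21) did not pass. Ciita, the transcription factor that switches on class II genes, had 11, 12, 13 and 10 at KO day 7, against 41, 75, 60 and 49 in KO untreated (-2.20 ± 0.29, adjusted p = 2.88e-06 by limma), so its day 7 values were at the level of array background. The count was again 7 without replicates 1 and 2.

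Class I presentation, which displays peptides made inside a cell, fell in 11 of 12 members, against 6.58% of all genes, with a median of -1.16. The class I molecule H2-Q4 had 18, 12, 11 and 14 at KO day 7, against 144, 142, 158 and 143 in KO untreated (-3.36 ± 0.42, adjusted p = 1.74e-06 by limma). Probe sets of class I genes can bind more than 1 member of this family of near-identical genes. Psme1, a subunit of the proteasome activator, had 1048, 1132, 1122 and 1034, against 2284, 2470, 2546 and 2479 (-1.08 ± 0.12, adjusted p = 2.74e-07).

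Erap1, the peptidase that trims peptides for class I, had 87, 91, 115 and 89 at KO day 7, against 245, 278, 250 and 258 in KO untreated (-1.35 ± 0.14, adjusted p = 7.42e-08 by limma). Both are small falls between groups that are tight and far apart, at intensities well above background. The immunoproteasome subunits Psmb9 (-2.98) and Psmb8 (-2.82) fell, as did the classical molecules H2-D1 (-0.94) and H2-K1 (-0.77). Nlrc5, the activator of class I genes, had 11, 10, 17 and 10, against 102, 148, 175 and 219 (-3.65 ± 0.48, adjusted p = 3.91e-06). Without replicates 1 and 2, 10 class I genes fell.

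Type I interferon-stimulated antiviral genes fell in 19 of 22 members, against 6.58% of all genes, with a median of -1.89. Ifit2, which blocks translation of viral RNA, had 42, 48, 47 and 46 at KO day 7, against 421, 611, 1309 and 1210 in KO untreated (-3.98 ± 0.58, adjusted p = 1.51e-05 by limma). Oas3, a sensor of double-stranded RNA, had 12, 15, 13 and 17, against 44, 56, 71 and 68 (-2.02 ± 0.20, adjusted p = 2.69e-08). The ubiquitin ligase Dtx3l had 230, 252, 249 and 232, against 801, 863, 893 and 943 (-1.79 ± 0.22, adjusted p = 1.46e-06).

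The untreated values of Ifit2 spread widely between arrays, while the day 7 values were close together. Rsad2 (-2.90), Zbp1 (-2.79), Usp18 (-2.73) and Cmpk2 (-2.43) fell too, and Ifit3 (-1.77), Oas1g (-0.81) and Mx2 (-0.11) did not pass. The count of this list depended on the arrays: 11 of 22 members fell without replicates 1 and 2 and 11 with the title letter as a blocking factor, although its median without those replicates was -1.82.

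Among interferon-induced chemokines and effectors, 8 of 12 fell, against 6.58% of all genes, with a median of -2.09. Ido1, which degrades tryptophan, had 21, 24, 30 and 16 at KO day 7, against 1345, 1462, 1378 and 1739 in KO untreated. Ubd, a ubiquitin-like modifier, had 18, 23, 54 and 17, against 1499, 1681, 1494 and 1580, and Cxcl9, a chemokine for activated T cells, had 12, 12, 11 and 16, against 380, 519, 532 and 559. Il18bp, which neutralizes the cytokine IL-18, had 15, 15, 29 and 12, against 266, 329, 419 and 432 (-4.33 ± 0.37, adjusted p = 1.74e-09 by limma).

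Il18bp was thus near background on all 4 day 7 arrays. The count of effectors that fell was 8 without replicates 1 and 2 as well. Cd274, the checkpoint ligand PD-L1, fell by 2.63, and the chemokine Cxcl10 fell by 2.81. Il18 itself (0.54), the nitric oxide synthase Nos2 (-0.18), Cxcl11 (-0.37) and Casp4 (-0.88) did not pass. With a pseudocount of 16 in place of 1, which weighs values near background less, the log2 differences of Ido1, Tgtp1 and Ubd were -5.25, -5.46 and -5.21. Of the 86 named genes that passed, 23 had a mean below 16 in 1 of the groups.

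Upstream members of the pathway moved less by the median of their list. Of 17 interferon ligands, receptors and factors, 9 fell, against 6.58% of all genes, with a median of -0.47. Among the 9 were Nlrc5 (-3.65), the largest fall of the list, and Ciita (-2.20), both described above. Other factors fell too. Irf8, a regulator of myeloid cells, had 154, 245, 233 and 239 at KO day 7, against 477, 677, 813 and 617 in KO untreated (-1.49 ± 0.25, adjusted p = 9.47e-05 by limma). Irf7 (-1.89), Irf1 (-1.49), Stat2 (-1.47) and Irf9 (-1.10) fell as well. The receptor genes Ifngr1 (-0.18), Ifngr2 (-0.14), Ifnar1 (-0.47) and Ifnar2 (-0.52) and the kinases Jak1 (-0.16) and Jak2 (-0.13) did not pass. Ifng fell by 0.41, but its mean was 9.5 at KO day 7 and 12.75 in KO untreated, so both groups were near background. In this list 7 members fell without replicates 1 and 2, and 4 with the title letter as a blocking factor.

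**Figure D2:**
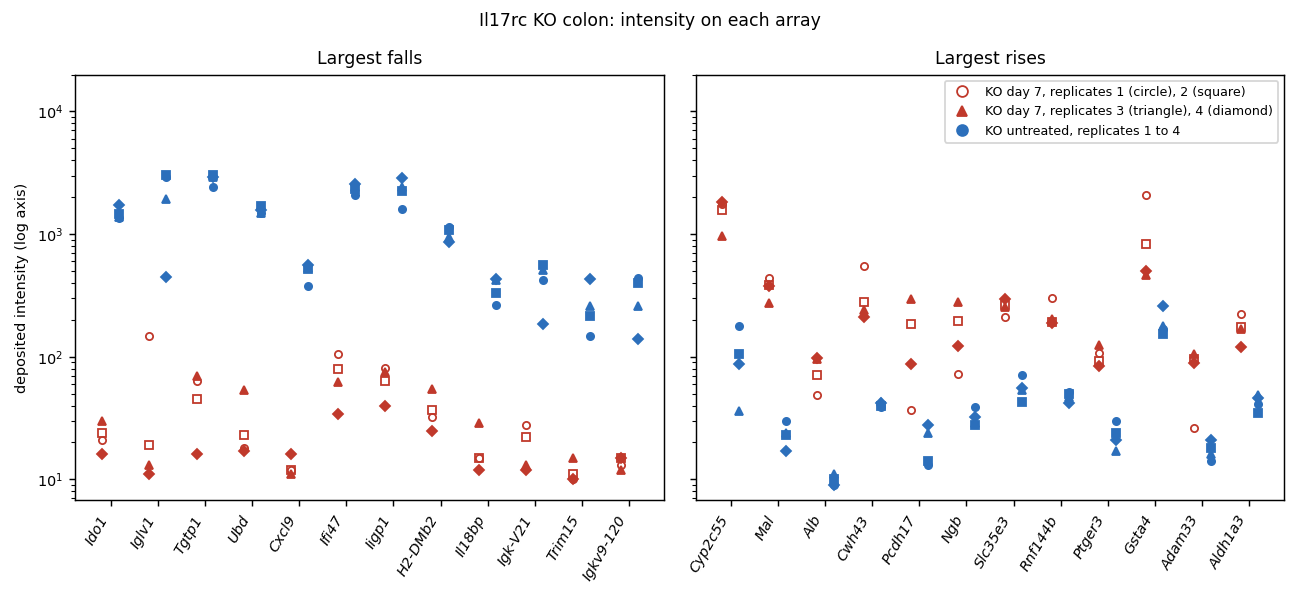
Deposited intensity (log axis) of the 12 largest falls and the 12 largest rises among called genes whose groups do not overlap, with KO day 7 in red (open symbols: replicates 1 and 2) and KO untreated in blue, 1 point per array. By the rule that chose the genes, the groups do not overlap in any of them. For Iglv1, replicate 1 at 147 stands above the other day 7 arrays.

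Markers of immune cells fell with the interferon genes. Of 21 markers of T and NK cells, 13 fell and 0 rose, against 6.58% and 5.64% of all genes, with a median of -0.98. Their summed intensity was 251 to 292 at KO day 7, against 894 to 1128 in KO untreated. Gzma, a protease of cytotoxic granules, had 9, 9, 7 and 8, against 164, 152, 48 and 83 (-3.47 ± 0.31, adjusted p = 6.47e-09 by limma). Its sister Gzmb had 16, 14, 13 and 14, against 77, 113, 78 and 125 (-2.70 ± 0.33, adjusted p = 1.46e-06). The chemokine Ccl5, made by T and NK cells, had 24, 17, 13 and 17, against 397, 355, 414 and 262 (-4.24 ± 0.54, adjusted p = 2.08e-06).

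All these genes were near background at day 7 and clearly above it in every untreated array. The T cell receptor component Cd3d fell by 2.23, while Cd8a (-0.52), Cd4 (-0.22), Prf1 (0.12) and Ncr1 (0.02) did not pass. These markers were low on the same arrays as the interferon genes, and their part in the fall of the interferon genes was not tested. Without replicates 1 and 2, 11 T and NK markers fell.

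Monocyte and macrophage markers fell in 12 of 17 members, against 6.58% of all genes, with a median of -1.88. The summed intensity was 1898, 1037, 1053 and 786 on KO day 7 replicates 1 to 4, against 3170 to 4991 in KO untreated. C1qb, a complement chain made by macrophages, had 75, 34, 32 and 20, against 468, 423, 463 and 269 (-3.36 ± 0.53, adjusted p = 4.56e-05 by limma). The chemokine receptor Cx3cr1 had 19, 13, 16 and 12, against 55, 49, 83 and 47 (-1.91 ± 0.30, adjusted p = 3.84e-05).

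The macrophage lysozyme Lyz2 had 421, 347, 367 and 275 at KO day 7, against 1418, 1670, 1756 and 777 in KO untreated (-1.88 ± 0.29, adjusted p = 3.68e-05 by limma). The groups did not overlap for any of these 3 genes, as was so for 11.9% of all genes in this direction. Replicate 1 was the highest day 7 array in each of the 3. The myeloid integrin Itgam (-0.09) and the receptors Ccr2 (-1.01), Mrc1 (-1.20), Cd163 (-0.53) and Fcgr1 (-1.16) did not pass. Leaving out replicates 1 and 2, 10 members fell.

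Plasma cell markers fell in 7 of 7 measured members, against 6.58% of all genes, with a median of -1.69. Without replicates 1 and 2, 6 of them fell. Jchain, which links antibody units for export into the gut, had 1271, 435, 288 and 94 at KO day 7, against 4507, 4725, 3434 and 3107 in KO untreated (-3.40 ± 0.57, adjusted p = 0.000113 by limma). The IgM heavy chain Ighm had 13, 11, 16 and 12, against 192, 403, 244 and 205 (-4.18 ± 0.77, adjusted p = 0.000292). Tnfrsf17, a survival receptor of plasma cells, had 9, 7, 8 and 7, against 37, 35, 18 and 21 (-1.69 ± 0.31, adjusted p = 0.000354).

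Antibody variable segments were also among the largest falls. Iglv1 had 147, 19, 13 and 11 at KO day 7, against 2924, 3027, 1932 and 444 in KO untreated (-5.93 ± 0.94, adjusted p = 4.61e-05 by limma), and Igk-V21 (-4.33) and Igkv9-120 (-4.27) fell. Replicate 1 was the highest day 7 array for Jchain and Iglv1. Segments of these families are alike, and a probe set can bind more than 1. Of 9 B cell markers, Cd79a (-0.66 ± 0.22, adjusted p = 0.0433 by limma) and Cd79b (-1.88 ± 0.63, adjusted p = 0.0453) fell, against 6.58% of all genes. Of these markers 0 passed without both replicates 1 and 2. Also 0 passed without KO day 7 replicate 1, 2 or 3 or KO untreated replicate 1, 2 or 3, and 1 without KO day 7 replicate 4. The B cell sum in KO untreated ranged from 99 to 1007 between arrays, against 95 to 107 at KO day 7.

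Neutrophil and mast cell markers had 0 calls among 13 and 11 members by limma, and 2 and 0 at an unadjusted p under 0.05. S100a8 did not pass (3.09 ± 1.32, adjusted p = 0.134), with the values per array given above. Mcpt2, a mast cell protease, had 11, 9, 7 and 9 at KO day 7, against 15, 17, 14 and 12 in KO untreated (-0.67 ± 0.40, adjusted p = 0.314). Without KO day 7 replicate 4, 1 neutrophil marker was called.

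Genes of cell division fell. Of 24 mitosis genes, 24 fell, with a median of -1.90, and of 23 DNA replication genes, 21 fell, with a median of -1.37, against 6.58% of all genes. Aurkb, a kinase of chromosome segregation, had 16, 11, 10 and 12 at KO day 7, against 74, 87, 81 and 138 in KO untreated (-2.85 ± 0.30, adjusted p = 9.67e-08 by limma). Top2a, which untangles DNA, had 146, 91, 86 and 98, against 494, 540, 567 and 686 (-2.36 ± 0.29, adjusted p = 1.14e-06). The mitotic motor Kif20a had 30, 31, 22 and 23, against 89, 127, 108 and 169 (-2.12 ± 0.26, adjusted p = 1.72e-06).

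In each of these, all 4 day 7 arrays lay below all untreated arrays, as was so for 11.9% of all genes. Fen1, which removes flaps from newly made DNA, had 41, 27, 18 and 18 at KO day 7, against 76, 91, 110 and 131 in KO untreated (-1.96 ± 0.24, adjusted p = 1.46e-06 by limma). The helicase subunit Mcm6 had 212, 159, 98 and 154, against 384, 446, 454 and 522 (-1.50 ± 0.21, adjusted p = 1.05e-05), and Gins2, part of the same helicase, fell by 1.62. Replicate 1 was the highest day 7 array for Fen1 and Mcm6.

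The proliferation marker Mki67 fell by 1.32 and the replication clamp Pcna fell by 0.97. Mcm3 (-0.82) and Pold1 (-0.46) did not pass. Without replicates 1 and 2, 23 mitosis and 20 replication genes fell. Ascl2, a transcription factor that maintains intestinal stem cells, had 9, 14, 12 and 10 at KO day 7, against 69, 68, 45 and 54 in KO untreated (-2.33 ± 0.43, adjusted p = 0.000291 by limma). The stem cell marker Lgr5 (-1.08) and the Wnt target Axin2 (-0.91) did not pass. The list of 15 stem cell genes had 2 falls and 1 rise, against 6.58% and 5.64% of all genes, with a median of -0.10. Its remaining calls, Lrig1 (-0.65 ± 0.21, adjusted p = 0.0398) and Prom1 (0.81 ± 0.23, adjusted p = 0.0171), were lost without single arrays, with adjusted p up to 0.119 and 0.0751. Without KO untreated replicate 4, 1 stem cell gene fell and 0 rose, and without KO day 7 replicates 1 and 2, 1 fell and 1 rose.

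**Figure D3:**
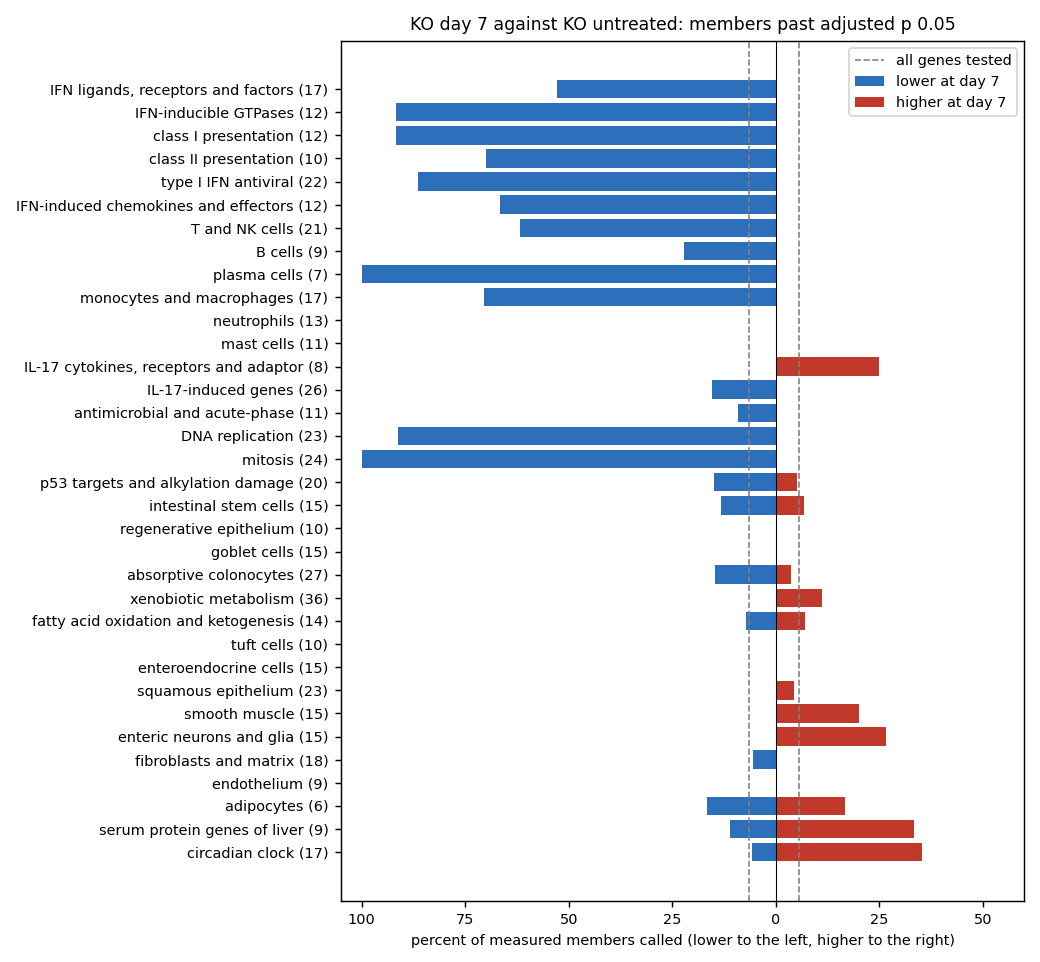
Percent of the measured members of each of 34 gene lists called lower (blue, to the left) or higher (red, to the right) at KO day 7 than in KO untreated, with the number of measured members in parentheses. Dashed lines mark the 6.58% and 5.64% of all genes called lower and higher. The interferon, T and NK cell, plasma cell, macrophage and cell division lists reach furthest to the left, while neutrophil and mast cell markers have no bar.

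Genes of differentiated epithelium mostly did not pass. Of 15 goblet cell genes, 10 tuft cell genes, 15 enteroendocrine genes and 10 genes of regenerating epithelium, 0 were called by limma, and 0, 1, 4 and 1 had an unadjusted p under 0.05. The smallest p among goblet cell genes was that of Galnt12 (-0.51 ± 0.26, adjusted p = 0.214), among tuft cell genes of Plcb2 (-0.38 ± 0.13, 0.0516), among enteroendocrine genes of Scg3 (0.75 ± 0.26, 0.0553) and among regenerating epithelium of Il1rn (0.80 ± 0.31, 0.0925). Summed goblet cell intensity was 35530 to 39771 at KO day 7, against 34411 to 38263 in KO untreated, so the ranges overlapped. The median log2 intensity over the goblet cell genes did not overlap, at 7.88 to 8.31 and 8.54 to 8.60. The median of their log2 differences was -0.04. With only the groups compared in the fit, 2 goblet cell genes rose and 2 fell, where 1532 genes rose and 1659 fell in all. Without 1 array, 1 call appeared in the tuft (KO untreated replicate 4), enteroendocrine and regenerative lists (KO day 7 replicate 1 for both), and 1 regenerative gene fell without KO day 7 replicates 1 and 2.

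Of 27 genes of absorptive colonocytes, 4 fell and 1 rose, against 6.58% and 5.64% of all genes, with a median of -0.12. Mal, a membrane protein of vesicle traffic, had 437, 382, 274 and 379 at KO day 7, against 30, 23, 24 and 17 in KO untreated. The calcium-binding protein S100g had 68, 161, 76 and 281, against 652, 575, 380 and 841 (-2.16 ± 0.62, adjusted p = 0.0181 by limma), and the water channel Aqp4 had 781, 293, 80 and 359, against 1345, 1752, 1166 and 1105 (-2.14 ± 0.62, adjusted p = 0.0206). The falls were not stable: leaving out single arrays left 0 to 3 of them, and 0 remained without KO day 7 replicate 3, 1 without KO untreated replicate 4 and 2 without KO day 7 replicate 2 or 4 or KO untreated replicate 2 or 3. Without both KO day 7 replicates 1 and 2, 2 fell and 1 rose. The adjusted p reached 0.0763 for S100g and 0.136 for Aqp4. The major transporters and enzymes Slc26a3 (-0.02), Car4 (-0.16) and Slc9a3 (-0.06) did not pass. Krt20, a keratin of the same list, had 1997, 2661, 2524 and 2617 at KO day 7, against 4375, 4233, 4573 and 5192 in KO untreated. The groups did not overlap for 12 of the 27 members, 7 of them lower at day 7, against 22.8% of all genes. With only the groups compared in the fit, 7 members rose and 8 fell.

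The largest rise was that of Cyp2c55, a cytochrome P450 enzyme of the colon, with 1753, 1579, 968 and 1832 at KO day 7, against 177, 106, 36 and 88 in KO untreated. Cwh43, a protein linked to membrane anchors, had 550, 279, 241 and 209, against 39 to 43 (2.85 ± 0.44, adjusted p = 3.83e-05 by limma). Slc35e3, a member of the solute carrier families, had 209, 264, 253 and 296, against 71, 43, 54 and 56 (2.21 ± 0.23, adjusted p = 8.52e-08). These rises were seen on all 4 day 7 arrays, with replicate 1 standing apart for Cwh43 only.

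Ptger3, a receptor for prostaglandin E2, had 107, 92, 124 and 84 at KO day 7, against 30, 24, 17 and 21 in KO untreated (2.15 ± 0.39, adjusted p = 0.00027 by limma). Another probe set of Ptger3 was not higher (-0.08 unnormalized, against 2.11 for the one used). The ubiquitin ligase Rnf144b rose by 2.20, the protease Adam33 by 2.02 and neuroglobin, Ngb, by 2.23. Gsta4, a glutathione transferase, had 2086, 829, 468 and 503, against 167, 154, 178 and 260 (2.13 ± 0.51, adjusted p = 0.0049), and its call was lost without replicates 1 and 2 (1.40, adjusted p = 0.139). The protocadherin Pcdh17 rose by 2.61, a call lost without KO day 7 replicate 3 (adjusted p = 0.0534). Aldh1a3, which makes retinoic acid, had an adjusted p of 0.0426, and that call was lost without any one of the 8 arrays (up to 0.0989).

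Muscle and nerve transcripts were higher on some day 7 arrays. Of 15 smooth muscle genes, 3 rose and 0 fell, against 5.64% and 6.58% of all genes, with a median of 0.80. The summed intensity was 30818, 52482, 61331 and 51873 on KO day 7 replicates 1 to 4, against 29124 to 32682 in KO untreated. Flna (1.10 ± 0.36, adjusted p = 0.0394 by limma), Pcp4 (1.74 ± 0.59, 0.0489) and Lmod1 (0.87 ± 0.25, 0.017) were the calls. Replicate 1 thus lay inside the untreated range, and the other day 7 arrays above it. The count was 2 without KO day 7 replicates 1 and 2, and 5 without replicate 1 alone. It was 1 without KO day 7 replicate 2 or 4 or KO untreated replicate 1, 2 or 3, and with the title number as a block. It was 0 without KO day 7 replicate 3 or KO untreated replicate 4, with median centring, without normalization or with the title letter as a block. With array weights 12 rose, with only the groups compared 10 and without arrays with Krt5 above 100 6, where 2480, 1532 and 805 of all genes rose. The log2 difference was above 0 for all 15 members. The groups did not overlap for 8 of them, against 10.9% of all genes in this direction.

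Of 15 genes of enteric neurons and glia, 4 rose, against 5.64% of all genes, with a median of 0.58. The sums were 966, 1671, 2042 and 1586, against 914 to 1119. Nos1, the neuronal nitric oxide synthase, had 47, 77, 101 and 100 at KO day 7, against 39, 35, 34 and 40 in KO untreated (1.12 ± 0.26, adjusted p = 0.00389 by limma). The synaptic vesicle protein Syt1 rose by 1.30 and Snap25 by 1.57, a call for Snap25 that was lost without KO day 7 replicate 3 or KO untreated replicate 3, when 2 of the list rose. Without KO day 7 replicates 1 and 2, 4 rose. The order of the 4 day 7 arrays was alike in the muscle and the nerve sums, with replicate 1 lowest and replicate 3 highest. The part of muscle and nerve tissue in other results was not tested.

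The IL-17 pathway itself showed few calls. Of 8 measured cytokines, receptors and adaptor, 2 rose and 0 fell, against 5.64% and 6.58% of all genes. One was Il17rc (1.83 ± 0.57, adjusted p = 0.0314 by limma), with the values given above, a call lost without KO day 7 replicate 1 or 2 or KO untreated replicate 1, 3 or 4 (up to 0.191) and without both replicates 1 and 2 (0.11, adjusted p = 0.924). The other was Il17re, a receptor subunit for IL-17C, with 221, 140, 121 and 130 at KO day 7, against 73, 72, 93 and 88 in KO untreated (0.92 ± 0.23, adjusted p = 0.00686), which had an adjusted p of 0.13 without replicates 1 and 2. The groups did not overlap for Il17re, as was so for 10.9% of all genes in this direction.

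The other receptor subunits and the adaptor were alike in level. Il17ra had 71, 91, 93 and 92 at KO day 7, against 80, 76, 94 and 86 in KO untreated (0.11 ± 0.26), and Traf3ip2 had 193, 169, 162 and 171, against 169, 165, 179 and 180 (0.06 ± 0.12). Il17rb (-0.15 ± 0.12) and Il17rd (0.17 ± 0.29) did not pass either. The cytokine genes Il17a, with 9 to 12 and 8 to 14, and Il23a, with 8 to 10 and 8 to 9, stayed near background in both groups.

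Among 26 genes that IL-17 induces, 4 fell and 0 rose, against 6.58% and 5.64% of all genes, with a median of -0.15. Ccl7, a monocyte chemokine, had 14, 15, 14 and 15 at KO day 7, against 83, 187, 80 and 94 in KO untreated (-2.79 ± 0.42, adjusted p = 2.42e-05 by limma). Lrg1, an acute-phase glycoprotein, had 61, 23, 22 and 15, against 117, 159, 210 and 169 (-2.55 ± 0.51, adjusted p = 0.000837). The acute-phase genes Saa1 (-0.97 ± 0.25, adjusted p = 0.00977) and Saa2 (-0.96) fell as well, but 2 genes of the list fell without KO day 7 replicate 1, when Saa1 had 0.0532, and 2 without replicates 1 and 2. Lcn2 (2.71) and the neutrophil chemokine Cxcl5 (2.79) did not pass. The median log2 intensity over the list was 5.81, 4.48, 3.91 and 3.92 on KO day 7 replicates 1 to 4. In KO untreated it was 4.43 to 4.86, so only replicate 1 lay above that range. Without replicates 1 and 2 the median log2 difference of the list was -0.47.

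Retnlb, an antibacterial protein secreted by goblet cells, was the fall among 11 antimicrobial genes. It had 14, 35, 94 and 15 at KO day 7, against 182, 243, 208 and 176 in KO untreated (-2.72 ± 0.74, adjusted p = 0.0133 by limma). Its call was lost without KO day 7 replicate 4 (adjusted p = 0.0551) and without replicates 1 and 2 (0.108). In WT it had 51, 121, 325 and 157 at day 7, against 18, 10, 8 and 12 untreated, a rise of 3.50 (adjusted p = 0.00604), and the KO change minus the WT change was -6.22 (adjusted p = 0.000455). Retnlb was thus high in untreated KO colon and low in untreated WT colon. At day 7 the ranges overlapped, at 14 to 94 in KO and 51 to 325 in WT. A difference between KO and WT at day 7 was not tested.

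Whether the KO change differed from the change in WT was tested as the difference of the changes, which share no arrays. It passed for 405 genes, 2.37% of those tested, with the KO change more negative in 296 (1.73%) and more positive in 109 (0.638%). Of the 1125 genes that fell in KO, 277 were in the first set, and 174 also fell in WT, where 231 genes (1.35%) fell and 52 (0.304%) rose in all. Of the 964 that rose in KO, 90 differed and 10 also rose in WT. The KO change is part of the tested difference, so genes picked by it enter these calls more often by construction. In place of 405, the test called 899 genes without WT day 7 replicate 1, 206 without WT day 7 replicate 3 and 257 without WT untreated replicate 4.

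The interferon genes changed in KO and not by the same test in WT. Of the 85 measured members of the 6 interferon lists, 65 fell in KO and 57 had a KO change more negative than the WT change, while in WT 0 fell and 0 rose by limma (0 and 11 at an unadjusted p under 0.05) and the mean was higher at day 7 than untreated for 77. Ido1 had 29, 27, 37 and 28 at WT day 7, against 26, 11, 7 and 9 in WT untreated, and its KO change minus its WT change was -7.36 (adjusted p = 0.000107 by limma). Tgtp1 had 99, 67, 216 and 143, against 192, 50, 22 and 40, a difference in change of -7.18 (adjusted p = 1.46e-05). The day 7 arrays of both genotypes thus lay far below the untreated KO arrays for Ido1 and Tgtp1, and the untreated WT arrays did as well.

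The KO change was more negative for 1.73% of all genes. By list, it was so for 11 of 12 GTPases, 11 of 12 class I genes, 7 of 10 class II genes, 14 of 22 antiviral genes, 8 of 12 effectors and 6 of 17 ligands, receptors and factors. Without the arrays with Krt5 above 100, which are KO day 7 replicates 1 and 2, WT untreated replicates 1 and 4 and WT day 7 replicates 1 and 4, these counts were 9 GTPases, 8 class I genes, 7 class II genes, 9 antiviral genes, 7 effectors and 3 of the last list. Of the 45 markers of T and NK cells, plasma cells and macrophages, 17 had a more negative KO change, against 1.73% of all genes. In WT 0 of them passed in either direction by limma (4 were higher at an unadjusted p under 0.05). The 17 were 8 T and NK, 3 plasma cell and 6 macrophage markers. Without the arrays with Krt5 above 100 the counts were 5, 1 and 7. These 3 lists are those with broad falls in KO. Of the 9 B cell, 13 neutrophil and 11 mast cell markers, 0 had a more negative KO change. Gzma had 9, 8, 9 and 10 at WT day 7, against 8, 8, 8 and 9 in WT untreated, so it was near background in WT throughout.

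The cell division genes changed in both genotypes. Of 47 members of both lists, 45 fell in KO and 40 in WT, and the difference of the changes passed for 0 of them by limma (4 at an unadjusted p under 0.05), with medians of -1.58 in KO and -1.64 in WT. Top2a had 64, 84, 51 and 80 at WT day 7, against 600, 325, 510 and 388 in WT untreated, and its difference in change was 0.16 (adjusted p = 0.9 by limma). For Ascl2 the difference was 0.20 (adjusted p = 0.923), with 9, 8, 8 and 9 at WT day 7, against 57, 70, 58 and 37 untreated. A p that misses the threshold does not show that the changes were equal.

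**Figure D4:**
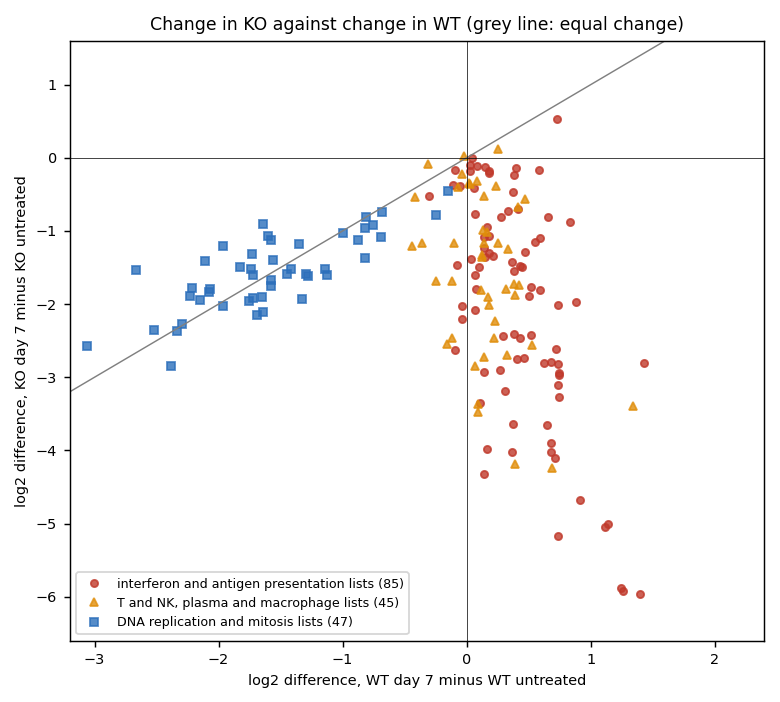
Log2 difference of day 7 minus untreated in KO (vertical) against that in WT (horizontal) for each member of the interferon (red), T and NK, plasma and macrophage (orange) and cell division lists (blue), with a grey line where both are equal. Cell division genes scatter around the line, and the interferon genes lie below it, down to -5.96 for Ido1.

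The levels were also set beside those of the later stages. The median log2 intensity over the GTPases was 9.27 to 9.95 on the KO untreated arrays, 5.82 to 6.47 at day 7, 8.59 to 9.13 at day 15 and 6.91 to 9.58 in tumors. In WT it was 5.56 to 7.30 untreated, 6.37 to 7.44 at day 7, 7.11 to 8.44 at day 15 and 6.37 to 8.19 in tumors. Over the class II genes it was 10.19 to 10.53 in KO untreated, 5.70 to 6.68 at KO day 7, 8.79 to 9.51 at KO day 15 and 6.70 to 9.46 in KO tumors. By this median the KO day 7 arrays lay below the arrays of the other KO stages for both lists, narrowly so against tumors for class II. By summed class II intensity they did not, with 3954 to 4990 at KO day 7 and 3200 to 11689 in KO tumors. The antiviral list overlapped with tumors, at 6.35 to 6.97 at KO day 7 and 6.00 to 9.08 in KO tumors, and so did class I, at 9.84 to 10.25 and 9.77 to 10.87. The mitosis genes had 7.03 to 7.80 in KO untreated, 5.11 to 5.66 at day 7 and 6.91 to 7.81 at day 15.

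**Figure D5:**
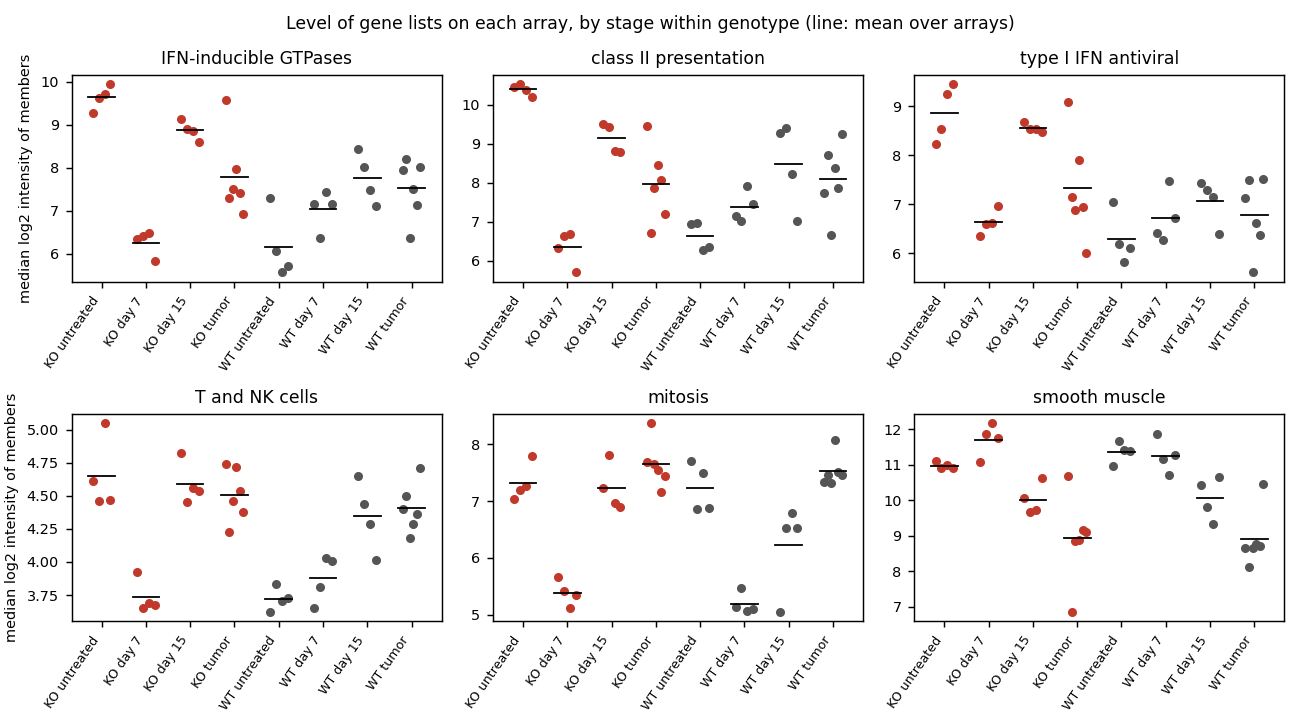
Median log2 intensity of the members of 6 gene lists on each array (points) and the mean over arrays (lines), for untreated, day 7, day 15 and tumor samples of KO (red) and WT (dark grey). In the GTPase, class II and antiviral panels the untreated KO arrays are the highest or among the highest, while the mitosis panel has low day 7 arrays in both genotypes.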

How the data were processed

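Per the labels' protocols, minced colon was homogenized and lysed in TRIzol, and RNA was put on Affymetrix HT MG-430 PM arrays. The authors deposited 1 whole-number linear intensity for every probe set, from 4 to 14185. How they corrected background, normalized and summarized is not given in the sources used here, and arrays have no read depth, so array number and dim signals set the precision.

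The log2 of each deposited value plus 1 was taken, then quantile normalization was run over 45037 probe sets and 36 arrays. Of the probe sets, 28898 had 1 gene symbol in the platform annotation, 551 several and 15588 none, and the brightest probe set of each symbol was kept, which left 17097 genes, 36.0% of them with a mean below 16. limma 3.58.1 in R 4.3.3 fitted 1 mean for each of the 8 groups, with moderated variances and an intensity trend, and p-values were adjusted by Benjamini-Hochberg over all genes at 0.05. The procedure was tested on simulated data. Promoters were taken from RefSeq (GRCm38.p6).

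The groups, the 34 gene lists (599 symbols, 529 measured) and the comparisons were chosen with earlier results of these data known. Named were the IL-17 list, the 12 largest rises and 12 largest falls with groups that do not overlap, and up to 3 called members of each list with the smallest p (else 1 member). Other members of the lists are given with their log2 differences beside the counts. Alternatives were a pseudocount of 16, median centring, no normalization, leaving out dim genes, the mean of probe sets, array weights, robust moderation, a fit of the compared groups alone, blocks for replicate number, title letter or title number, and omission of single arrays, of KO day 7 replicates 1 and 2, or of the arrays with Krt5 above 100. A second promoter motif of the planned search is not reported here.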

Additional observations from a re-analysis of the deposited data

Results flagged for a closer look

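In 11 of 198 groups of 4 arrays tested, 1 array lay far from the other 3, and chance alone gives about 1 in 20. In KO day 7, replicate 1 was apart for Rnf144b (highest, 303), Adam33 (lowest, 26), Irf8 (lowest, 154) and Per3 (lowest, 117), replicate 2 for Fas (lowest, 53) and replicate 3 for Erap1 (highest, 115). In KO untreated, replicate 1 was apart for Il23a (highest, 9), replicate 2 for Ccl7 (highest, 187) and Flna (lowest, 600) and replicate 4 for Anxa8 (highest, 1172) and Lmod1 (lowest, 43).

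The change at day 7 differed between KO and WT by the limma test of the difference for 405 genes (2.37%), and for 42 of the 99 named genes. Most named genes were chosen by their KO change, which is part of this difference. A high count among them thus follows in part from the choice. The values that follow are the KO change minus the WT change in log2 units. Among the largest falls these were -7.36 for Ido1, -7.18 for Tgtp1, -7.15 for Iglv1, -7.12 for Ubd, -6.35 for Igk-V21, -6.16 for Ifi47, -6.15 for Iigp1, -5.91 for Cxcl9, -5.60 for H2-DMb2, -4.47 for Il18bp and -3.89 for Trim15. Among interferon factors and GTPases they were -4.02 for Nlrc5, -2.16 for Ciita, -1.59 for Irf8, -4.39 for Gbp10 and -3.49 for Gbp8. Among presentation and antiviral genes they were -4.70 for H2-DMa, -4.59 for Cd74, -3.46 for H2-Q4, -1.56 for Erap1, -1.22 for Psme1, -4.14 for Ifit2, -1.98 for Oas3 and -1.86 for Dtx3l.

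Among immune cell markers the difference was -4.93 for Ccl5, -4.74 for Jchain, -4.58 for Ighm, -3.56 for Gzma, -3.46 for C1qb, -3.02 for Gzmb, -2.27 for Lyz2 and -2.08 for Cx3cr1. It was also negative for Retnlb (-6.22), Aqp4 (-3.75), Ccl7 (-2.78) and Fas (-1.54). The change was more positive in KO for Mal (4.52), Pcdh17 (3.71), Gsta4 (3.00), Rnf144b (2.30), Ptger3 (2.30) and Slc35e3 (2.28). Leaving out 1 array ended this call for Mal (adjusted p up to 0.0894 by limma), Pcdh17 (0.093), Ptger3 (0.0609), Gsta4 (0.063), Ighm (0.0513), Fas (0.108) and Aqp4 (0.0541). Without KO day 7 replicates 1 and 2 it was lost for Mal (0.0942), Rnf144b (0.0537), Ptger3 (0.0587), Gsta4 (0.132), Ighm (0.0600) and Fas (0.123). Leaving out all arrays whose Krt5 exceeded 100 ended it for Rnf144b (0.0513), Irf8 (0.0851), Ccl7 (0.0873), Ighm (0.124) and Fas (0.193).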

How the results depend on the processing

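The 2089 calls of KO day 7 against KO untreated and the 405 of the genotype difference became 4857 and 2516 with array weights, 3191 and 580 with only the groups compared, 1298 and 284 with the title letter as a blocking factor, and 1529 and 292 without KO day 7 replicates 1 and 2. Leaving out 1 array each gave 1317 to 2276 and 206 to 899. The replicate number as a block gave 2016 and 471. The numbers were not taken as pairs, since the labels state no pairing and the correlations of same-numbered KO deviations were -0.070, 0.055, -0.030 and 0.052 (in WT 0.398, 0.282, 0.212 and 0.164). Of the 86 called named genes, 57 kept direction and call in every alternative, 29 lost the call in at least 1 and 0 reversed. Reversed values came from genes that did not pass: Il17ra was -0.20 with the letter block and -0.0046 with median centring. Traf3ip2 was -0.024 without replicates 1 and 2 and without arrays of Krt5 above 100, -0.045 with median centring and -0.0049 without KO day 7 replicate 1 (to 0.10 over single arrays). Il17a was 0.045 with the letter block and 0.062 without KO untreated replicate 2 (down to -0.19), and S100a8 was -0.30 without replicates 1 and 2 and without arrays of Krt5 above 100. The causes were not tested. Signals near background limit the size of falls to low levels. The 2 probe sets of some named genes differed in their unnormalized log2 differences. The values were 1.81 and -0.004 for Il17rc, 2.11 and -0.08 for Ptger3, 2.17 and 0.08 for Rnf144b and 1.01 and -0.19 for Tef. They were -4.10 and -0.29 for H2-DMa, -1.88 and -0.10 for Cx3cr1 and -4.27 and -0.005 for Igkv9-120. For H2-DMb2 they were -4.77 and -1.02, for Aurkb -2.83 and -1.22 and for Arntl -1.14 and -0.10. For Adam33 they were 1.97 and 0.76, and for Il17rd 0.15 and -0.08. Some pairs were closer, such as 3.92 and 3.17 for Mal and -1.77 and -1.56 for Irf8.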

Other observations

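Genes of the circadian clock, which keeps daily time in most cells, moved at KO day 7. Of 17 members, 6 rose and 1 fell, against 5.64% and 6.58% of all genes, with a median log2 difference of 0.58. Per3, a clock repressor, had 117, 227, 233 and 238 at KO day 7, against 99, 91, 49 and 69 in KO untreated (1.43 ± 0.36, adjusted p = 0.00692 by limma). Its activator Arntl had 27, 22, 17 and 29, against 61, 39, 58 and 55 (-1.12 ± 0.27, adjusted p = 0.00601). Tef, a clock output factor, rose by 1.08, and Per1, Ciart, Cry2 and Hlf by 1.34, 1.32, 0.92 and 0.91. The rises numbered 3 without KO day 7 replicate 2, 3 or 4 or KO untreated replicate 3, 2 without KO untreated replicate 4, and 3 with median centring or no normalization, while 6 rose and 1 fell without KO day 7 replicates 1 and 2. The hour of collection is not given in the sources used here.

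Of 9 genes of serum proteins, 3 rose and 1 fell, against 5.64% and 6.58% of all genes. Alb had 49, 71, 96 and 98 at KO day 7, against 9, 10, 11 and 9 in KO untreated. Trf, which carries iron, had 56, 60, 55 and 87, against 565, 554, 684 and 624 (-3.13 ± 0.33, adjusted p = 9.67e-08 by limma). Apoc3 and Serpina1a rose by 0.37 and 0.30 at values near background, and 1 gene rose without KO day 7 replicate 3 or 4 or any one KO untreated replicate. Without KO day 7 replicates 1 and 2, 2 rose and 1 fell. Of 36 genes of xenobiotic metabolism, 4 rose, against 5.64% of all genes. The 4 were Cyp2c55, Gsta4, Fmo5 (0.85) and Cyp3a11 (0.50). The count was 2 without KO day 7 replicate 4. It was also 2 without KO day 7 replicates 1 and 2, where 3.9% of all genes rose.

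Of 20 p53 targets, 3 fell and 1 rose, against 6.58% and 5.64% of all genes, and 1 fell and 1 rose without KO day 7 replicates 1 and 2. The death receptor Fas had 60, 53, 66 and 62 at KO day 7, against 136, 157, 167 and 127 in KO untreated (-1.18 ± 0.30, adjusted p = 0.00715 by limma), with an adjusted p of 0.0554 without replicates 1 and 2. Pmaip1 and Cdkn1a fell by 1.16 and 0.64, and Ei24 rose by 0.31. Of 14 genes of fatty acid oxidation Acadm rose by 0.53 and Acadl fell by 0.33, against 5.64% and 6.58% of all genes. Among 18 fibroblast genes Col14a1 fell by 1.68. The counts of these 2 lists were thus near the shares of all genes. Among 6 adipocyte genes Plin4 rose by 1.25 and Adipoq fell by 2.65, against the same shares. The calls for Acadm, Acadl, Col14a1, Plin4 and Adipoq were lost without single arrays (adjusted p up to 0.0844, 0.0663, 0.0899, 0.13 and 0.204). Of these, Acadm and Plin4 passed without KO day 7 replicates 1 and 2 (0.0448 and 0.0423). Of 9 endothelial genes 0 passed by limma, with 1 at an unadjusted p under 0.05.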
